A study of Bos taurus with 8 samples.

Results

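Fibro-adipogenic progenitors (FAPs) are the connective tissue cells of skeletal muscle. They lie between the fibres, carry the platelet-derived growth factor receptor PDGFRA, build most of the interstitial matrix and can turn into adipocytes or fibroblasts. In muscle they also secrete growth factors, complement proteins and matrix components that act on satellite cells (SCs), the muscle stem cells, and on vessels. The FAPs described here are the 1231 cells, of 4395 in the library of fresh muscle, to which the authors' annotation gives that label. They make up 28.0% of that library, and the whole series holds 36129 annotated cells.

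The cells came from the semitendinosus muscles of 10 Belgian Blue cattle, digested with collagenase, strained, freed of red cells and loaded without sorting or culture. Of the animals 5 were calves (animals 2, 4, 5, 7 and 10) and 5 adults, 7 were female and 3 male, and none was treated. Age class and sex are taken from the study's own list of animals, matched by animal number to the genotyped donors, and every comparison of calves with adults rests on that match. Cells of all animals were pooled into 1 droplet library (10x Genomics 3′ chemistry), and each cell was traced to its animal by genotype, so the animal is the replicate throughout and p-values measure the spread between animals. The library is a suspension: muscle fibres and cells that do not survive digestion are not in it.

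Each animal gave 52 to 350 FAPs, and the sum of their unique molecular identifiers (UMIs, 1 per captured transcript) ran from 270458 to 2268755. A single FAP carried 664 to 12526 UMIs, with a median of 6213. FAPs made up 13.9% to 46.4% of an animal's cells, 27.2% ± 8.88 (SD, n = 10). Calves had 27.0% ± 12.1 and adults 27.5% ± 5.45 (SD, n = 5 each), a difference far inside the spread (exact permutation test, two-sided, p = 0.913). Animal 5 alone gave 350 of the FAPs, which is why levels below are computed per animal unless they are said to be over all cells. These levels are counts per 1000000 UMIs of the animal's FAPs (CPM). The 3′ counts are 1 per transcript, so CPM does not rise with gene length.

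FAPs carried more RNA molecules than most of their neighbours. The median FAP of an animal held 1955 more UMIs than its median SC, 2966 more than its vascular endothelial cells (VECs), 3046 more than its smooth muscle and mesenchymal cells (SMMCs) and 1502 more than its lymphocytes (means over 10 animals, SD 628 to 736). All 10 animals showed each of these differences (exact sign-flip test, two-sided, adjusted p = 0.003196, 18 tests). Macrophages held 6266 UMIs against 5904 in FAPs, a difference of −362 ± 964 (SD, n = 10) that the exact test did not separate (adjusted p = 0.275). The number of genes detected per cell was also higher in FAPs than in those 4 types in all 10 animals (exact sign-flip test, adjusted p = 0.003196), with a mean of 2118 against 1307 to 1560. The percent of mitochondrial UMIs was lower in FAPs, 2.66% on average, than in SMMCs (3.98%), lymphocytes (3.93%), macrophages (3.38%) and SCs (3.38%), with adjusted exact p of 0.005859 for SCs, where 9 of 10 animals showed the difference, and 0.003196 for the others. VECs had less, 2.27% (adjusted exact p = 0.040565), a difference that was lost when means replaced medians (adjusted exact p = 0.414).

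The labelled cells are described first by 5 marker genes, PDGFRA (ENSBTAG00000007173), DPT (ENSBTAG00000021211), MFAP5 (ENSBTAG00000000310), VEGFD (ENSBTAG00000009476) and CYP4B1 (ENSBTAG00000011976). PDGFRA stood at 587 to 1212 CPM (median 799.9) in the FAPs of the 10 animals and at 4.24 to 23.6 CPM (median 13.5) in all other cells. Dermatopontin (DPT), a small matrix protein that binds decorin and collagen, stood at 1021 to 1723 CPM (median 1319) against 2.82 to 52.3 CPM (median 13.3). MFAP5, a microfibril glycoprotein, reached 2305 to 5266 CPM (median 4062) against 21.4 to 178 CPM (median 60.4). None of these groups overlapped. The lymphangiogenic growth factor VEGFD and the cytochrome CYP4B1 were far less abundant, at 21.1 to 104 CPM (median 65.1) and 28.7 to 140.1 CPM (median 70.5), and stood at 0 to 1.71 and 0 to 2.57 CPM in the other cells. All 5 markers were higher in the labelled cells in every animal. The labels were drawn from these same values, so this describes the label and cannot test it. Over all cells together the 5 markers summed to 6416 CPM in FAPs, 1895 CPM in cells labelled tenocytes and 650 CPM in those labelled myocytes.

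Marker lists of the other large types summed to lower levels in FAPs than in the types they mark, though not to 0. Their summed levels in FAPs were 21.2 to 159 CPM (median 40.9) for 8 endothelial genes, 37.0 to 96.2 CPM (median 50.7) for 8 smooth muscle and pericyte genes and 46.8 to 152 CPM (median 78.9) for 8 macrophage genes. The types these lists belong to had medians of 4680.0, 13120.2 and 13993 CPM. The SC list stood at 63.2 to 244 CPM (median 100.7) in FAPs and at a median of 1543 CPM in SCs. The intermediate filament gene DES, at 60.7 to 218 CPM (median 99.4), and the macrophage gene CD14, at a median of 58.2 CPM against 65.8 in the other cells, were not scarce. CALCR and CDH15 of the SC list and CD79A of the lymphocyte list, each seen in its own type, had 0 UMIs in all 7723469 UMIs of the FAPs. Markers of tenocytes, the tendon cells, summed to 277 to 1013 CPM (median 547) in FAPs and to a median of 982 CPM in SMMCs, with THBS4 at a median of 465.7 CPM in FAPs and SCX, the defining factor, at 0. SCX was also undetected in VECs, SMMCs, macrophages, lymphocytes and lymphatic endothelium. Over all cells together the list summed to 477 CPM in FAPs and 8829 CPM in the tenocytes. Single cells were then screened with the lists of SCs, VECs, lymphatic endothelium, SMMCs, macrophages, lymphocytes, neutrophils and glial cells. Tenocyte markers and fibre genes were not part of that screen. Of the FAPs 133 (10.8%) carried at least 2 different markers of some screened type, most often of macrophages (56 cells), SMMCs (40 cells) or VECs (36 cells). Of the macrophage list CD14 was seen in 26.8% of all FAPs and CD68 in 7.15%. Whether flagged cells hold transcripts of another type was not tested. Leaving out the 133 cells moved none of the counts over all genes, or of genes above all 6 types, by more than 1.5 times.

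Droplets also take up RNA that is free in the suspension, and transcripts of muscle fibres were seen in all types. The 11 genes of the contractile apparatus found in the files, led by skeletal actin ACTA1, summed to 1027 to 1742 CPM (median 1429.7) in FAPs. Medians in the other 6 large types ran from 219 CPM in lymphocytes to 932 in SCs, and the 45 cells labelled myocytes together stood at 109979.6 CPM. The fast myosin MYH1 was the 1 fibre gene higher in FAPs than in the other cells of all animals, at 41.4 to 126 CPM (median 55.0) against 6.57 to 73.8 CPM (median 28.5). FAP transcripts were seen in turn in lymphocytes, where decorin (DCN) averaged 355 CPM and PDGFRA 28.8 CPM. In 1 animal the 5 FAP markers summed to 1602 CPM in lymphocytes, against a median of 42.3 CPM over all animals. The part of free RNA in the differences below was not tested.

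Because the authors drew the cell types by clustering on these same genes, FAPs against other cells is a description here and carries no p-value. A gene was counted as higher when its fitted log2 fold change (log2FC, edgeR with the animal as a block) exceeded 1 and its CPM was above that of the other cells in all 10 animals. Of 7512 genes 630 were higher (8.39%) and 836 lower (11.1%), and the median log2FC of all genes was -0.03. The 10 largest log2FC among genes of at least 50 CPM belonged to DPT (6.34 ± 0.26), VEGFD (6.31 ± 0.22), CYP4B1 (6.24 ± 0.26), MFAP5 (6.08 ± 0.31), ALDH1A2 (5.96 ± 0.26), DCN (5.79 ± 0.54), PDGFRA (5.77 ± 0.17), PI16 (5.72 ± 0.32), ISLR (5.68 ± 0.22) and LVRN (5.66 ± 0.23), each with its SE.

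These 10 genes differ in role and in abundance. DCN, a proteoglycan that coats collagen fibrils, was the most abundant of them at 17141 to 22125 CPM (median 19418) and varied least between animals. ALDH1A2 makes retinoic acid and stood at 57.0 to 149 CPM (median 94.7). PI16, a peptidase inhibitor that marks a class of fibroblasts along vessels and fascia in other tissues, stood at 269.9 to 801 CPM (median 546), and the aminopeptidase LVRN at 136 to 309 CPM (median 199). ISLR, a secreted leucine-rich protein of mesenchymal cells, stood at 104 to 366 CPM (median 245). At the other end, the genes furthest below the other cells included the macrophage scavenger receptor CD163, with 1 UMI in all FAPs and a median of 109 CPM in the other cells, and LIX1, with 0 UMIs in FAPs and 36.3 CPM elsewhere. A count of 0 in the 7723469 UMIs of FAPs allows a level of up to 0.388 CPM.

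**Figure D1:**
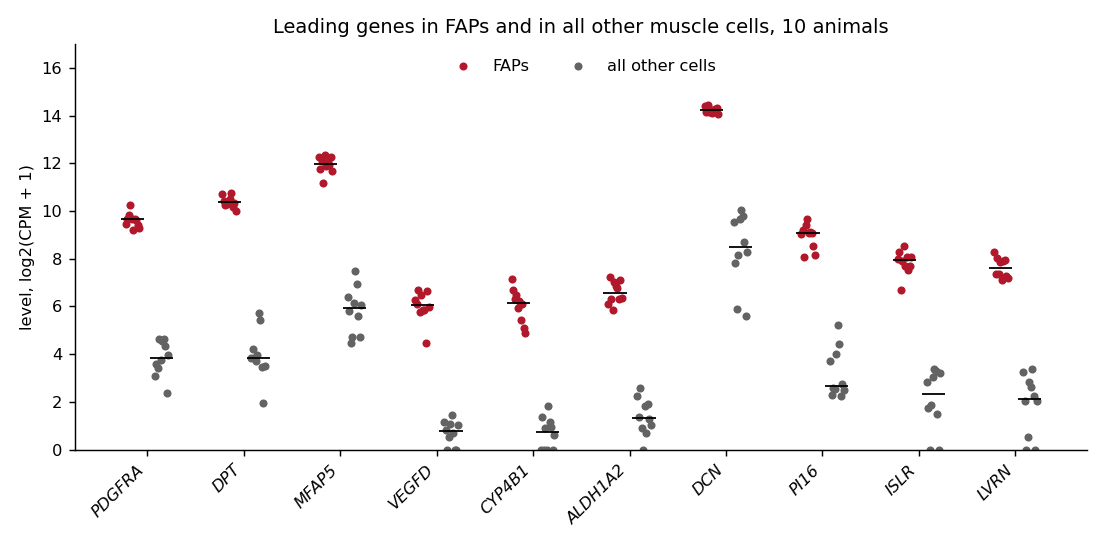
Level of the 5 marker genes and the other leading genes in FAPs (red) and in all other muscle cells (grey), as log2(CPM + 1), with 1 point per animal and a line at the median of the 10 animals. For every gene shown the lowest FAP value lies above the highest value of the other cells, and DCN sits highest with a median of 19418 CPM.

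A mixture of all other cells hides which neighbour comes closest, so FAPs were also set against each large type with at least 10 cells in an animal. Against SCs 548 of 4450 genes were higher in every animal (12.3%), against VECs 645 of 5309 (12.1%), against SMMCs 489 of 4287 (11.4%), against macrophages 713 of 4254 (16.8%) and against lymphocytes 693 of 3028 (22.9%). Lymphatic endothelial cells (LECs) reached 10 cells in 4 animals only, and 688 of 4229 genes were higher there (16.3%). Among 2845 genes fitted in all 6 comparisons, 157 (5.52%) were higher in FAPs than in every type. Every type means these 6 here and below. The 23 tenocytes had under 10 cells in each animal and were not among them, so their levels are given for all their cells together and without replicates, beside FAPs summed the same way. Animal 5 weighs most in such sums of FAPs. For 56 of the 157 genes the type with the smallest difference was the SCs, for 49 the SMMCs and for only 10 the VECs.

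The 10 genes with the widest margin over their nearest type were DCN, ALDH1A2, SERPINF1, MFAP5, DPT, LVRN, FBLN1, SMOC2, MME and C1S. DCN led with a log2FC of at least 6.24 in each of the 6 comparisons. SERPINF1, which encodes the anti-angiogenic factor PEDF, stood at 1132 to 2438 CPM (median 1597) in FAPs and at 36.2 CPM on average in SCs and 24.6 in VECs, with a smallest log2FC of 5.17. Fibulin 1 (FBLN1), a glycoprotein of elastic fibres and basement membranes, stood at 629 to 1209 CPM (median 957) and came closest in SCs at 39.7 CPM (log2FC 4.70 ± 0.30). The matricellular protein SMOC2 stood at 82.1 to 190.4 CPM (median 124) and the membrane peptidase MME (neprilysin, CD10) at 173 to 451 CPM (median 324). C1S, a protease that starts the classical complement cascade, stood at 477 to 2243 CPM (median 708) and at 44.7 CPM in SMMCs, its nearest type. For DCN, MFAP5, DPT, LVRN, SMOC2, MME and SERPINF1 the nearest type was the lymphocytes, the smallest sums among types with all 10 animals.

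**Figure D2:**
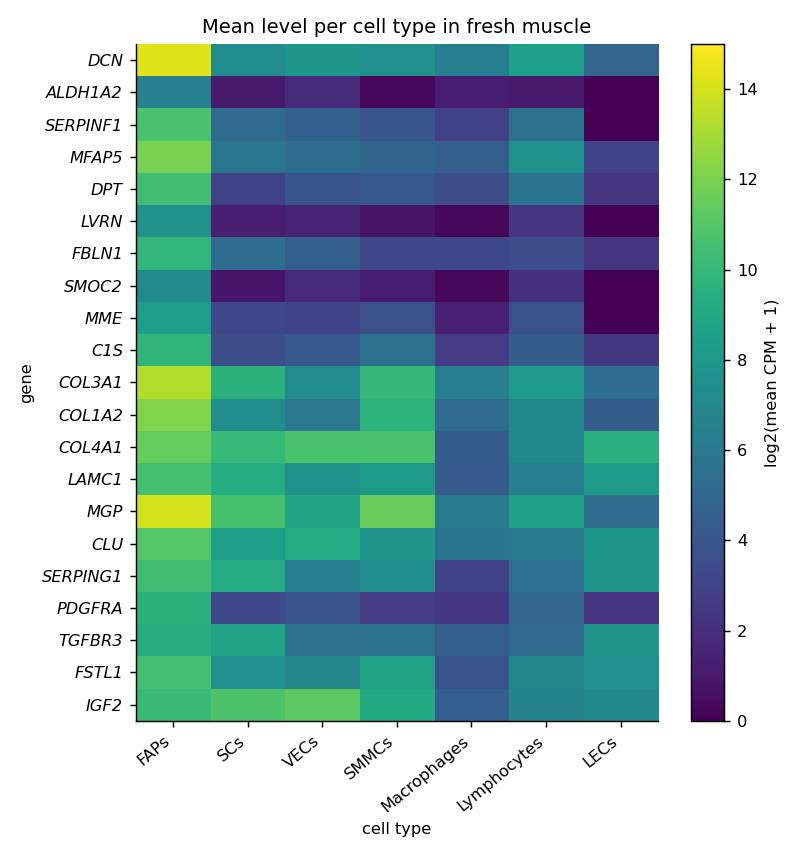
Mean level of the 10 genes with the widest margin and of the most abundant members of 6 gene lists in FAPs and 6 other cell types, as log2(mean CPM + 1), over 10 animals (4 for LECs). The first 10 rows are brightest in FAPs, while IGF2 is brighter in SCs and VECs.

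To describe what FAPs express, 20 lists of genes with known roles were followed, with 430 different genes in the files, of which 284 passed the filter on low counts and could be fitted. The tenocytes had the higher sum over all cells in 9 of the 20 lists and FAPs in 11. Counts of members are read against the 8.39% of all genes that were higher, the 11.1% that were lower and the 5.52% that exceeded all 6 types. Interstitial collagens form the fibrils around muscle fibres. All 13 fitted interstitial collagens were higher than in the other cells, with a median log2FC of 3.74 against -0.03 for all genes, and 10 of 12 were higher than in each of the 6 types. Their summed level over all cells was 24883 CPM in FAPs and 99834 CPM in the tenocytes. COL3A1 stood at 5408 to 16128 CPM (median 9602) and COL1A2 at 2751 to 7519 CPM (median 4587). The nearest type for both was the SMMCs, at 1009.5 and 834 CPM. COL8A1 had the largest log2FC of the list (4.31 ± 0.30), and COL12A1, a collagen associated with tension-bearing fibrils, the smallest (1.35 ± 0.18). COL8A2 was too low to be fitted.

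Small leucine-rich proteoglycans bind and space collagen fibrils. Of 11 fitted members 8 were higher in FAPs and none lower. Over all cells they summed to 24691 CPM in FAPs and 33985 CPM in the tenocytes. Lumican (LUM) stood at 1019.7 to 4523 CPM (median 1902) against 5.65 to 112 CPM (median 50.6) in other cells. FMOD (log2FC 0.49 ± 0.22), ASPN (1.68 ± 0.32) and KERA were not higher in every animal, with fibromodulin higher in 7 of 10 animals and asporin in 9.

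Elastic fibres and their microfibril scaffold gave a like picture, with 15 of 16 fitted genes higher, 12 of 14 above all 6 types and a median log2FC of 3.55. Their sum over all cells was 30121 CPM in FAPs and 37015 CPM in the tenocytes. Matrix Gla protein (MGP), an inhibitor of calcification, was the most abundant of them at 7542 to 24174 CPM (median 15945). SMMCs also had it, at 2888 CPM (log2FC 2.64 ± 0.24). EFEMP1 (fibulin 3) stood at 291 to 652 CPM (median 525) against a median of 12.7 CPM in the other cells. EMILIN2 was the exception of this list, at 22.2 to 84.6 CPM (median 47.2) against 19.7 to 51.9 CPM (median 41.5).

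Basement membranes wrap fibres and vessels, and here the margins were narrower. Of 13 fitted genes 12 were higher in FAPs than in the other cells, but 5 of 12 stood above every type. The type IV collagen COL4A1 stood at 2404 to 3779 CPM (median 2657) in FAPs, 1714 CPM in SMMCs, 1658 in VECs and 1071 in SCs. Its log2FC against VECs was 0.79 ± 0.13. The linker nidogen 1 (NID1, 1074 to 1961 CPM, median 1418) and the laminin chains LAMC1 and LAMA2 did exceed all types, with SCs nearest (log2FC 2.40 ± 0.37, 1.31 ± 0.10 and 1.23 ± 0.11). Agrin (AGRN), which clusters receptors at the nerve-muscle junction, was lower in FAPs in all animals (-2.35 ± 0.24).

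Enzymes that mature and crosslink collagen were higher for 12 of 16 fitted genes and lower for P4HA3 (-2.65 ± 0.23), with 5735 CPM over all FAPs and 6701 CPM over the tenocytes. The procollagen protease enhancer PCOLCE2 stood at 557 to 2358 CPM (median 978) and the collagen chaperone SERPINH1 at 662 to 1571 CPM (median 1031). The crosslinking oxidase LOXL1 reached a log2FC of 4.13 ± 0.13, and the fibroblast activation protein gene FAP 3.88 ± 0.20 at 53.5 to 161 CPM (median 114). Of the metalloproteinases and their inhibitors 8 of 11 were higher, led by the broad protease inhibitor A2M (478 to 1994 CPM, median 1091, log2FC 5.28 ± 0.27) and the gelatinase MMP2 (569.9 to 1083 CPM, median 888, log2FC 3.59 ± 0.19). TIMP4 was lower (-4.66 ± 0.28).

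Complement genes and their regulators were a second group. Of the classical pathway, C1QA and C1QB were kept in the macrophage list instead, and both were lower in FAPs (C1QB log2FC -8.32 ± 0.36). The counts that follow leave them out. Of 11 fitted genes 9 were higher and none lower, with a median log2FC of 3.34, and 7 of 9 exceeded each type. Over all cells the list summed to 6991 CPM in FAPs and 5602 CPM in the tenocytes. Per animal its sum was 5005 to 14051 CPM (median 6579) in FAPs and overlapped that of macrophages, 3605 to 7484 CPM (median 5400). The proteases C1R and C1S stood at 494 to 2235 CPM (median 777) and 477 to 2243 CPM (median 708), log2FC 5.37 ± 0.25 and 5.39 ± 0.23. Their inhibitor SERPING1 stood at 872 to 2619 CPM (median 1189) and the chaperone clusterin (CLU) at 1507 to 2665 CPM (median 2006). Factor D (CFD), the protease of the alternative pathway, was above every type but the macrophages, at 72.1 to 925 CPM (median 271) in FAPs and a mean of 4766 CPM in macrophages.

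Among growth factors and their secreted inhibitors 12 of 27 were higher and 2 lower. Their sum over all cells was 5484 CPM in FAPs and 7561 CPM in the tenocytes. Follistatin-like 1 (FSTL1) was the most abundant at 1276 to 1933 CPM (median 1428, log2FC 3.20 ± 0.12), followed by insulin-like growth factor 2 (IGF2) at 429 to 1902 CPM (median 1101), which was higher in SCs (1819 CPM) and VECs (2431 CPM). IGF1 stood at 38.2 to 242 CPM (median 73.8), near macrophages at 68.6 CPM. The angiopoietin-like factor ANGPTL1 stood at 399 to 789 CPM (median 545, log2FC 4.16 ± 0.16). PDGFA, a ligand of PDGFRA, was close to absent in FAPs at 0 to 3.18 CPM (median 0.821) and lower than in the other cells in all 10 animals (-4.36 ± 0.29), as was HBEGF (-3.64 ± 0.33).

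Of 11 fitted chemokines and cytokines, CXCL12, CXCL14, CCL19 and CSF1 were higher and CXCL8 and KITLG lower. CXCL12, which holds leukocytes and progenitors in tissue, stood at 663 to 1146 CPM (median 918) in FAPs and 794 CPM in VECs, a log2FC of 0.24 ± 0.11. CXCL14 was shared with SCs (171 CPM). CCL19, a chemokine of lymph node stroma, ranged widely, with 12.1 to 339 CPM (median 45.2). Of the Wnt list 5 of 7 were higher, among them the Wnt antagonist SFRP4 at 271 to 1067 CPM (median 620.2, log2FC 4.37 ± 0.52) and the ligand WNT2B at 39.3 to 113 CPM (median 62.8, log2FC 5.05 ± 0.29). The Wnt list summed to 1145 CPM over all FAPs and to 3467 CPM over the tenocytes. IGFBP6, which binds IGF2 by preference, was the only one of 5 fitted IGF binding proteins counted as higher, at 3143 to 7132 CPM (median 5264, log2FC 2.37 ± 0.19).

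Receptors were mixed, with 19 of 36 higher, 3 lower and a median log2FC of 1.09. After PDGFRA the largest log2FC was that of the ferritin receptor SCARA5 (5.06 ± 0.14) at 336 to 671 CPM (median 539). The TGF-β co-receptor TGFBR3 stood at 383 to 882 CPM (median 705), with SCs nearest at 429.8 CPM. The laminin receptor subunit ITGA7, which marks SCs and SMMCs, and the endothelial TEK were lower (-3.53 ± 0.15 and -2.61 ± 0.22). NOVA1, an RNA-binding splicing factor best known from neurons, stood at 499.8 to 1407 CPM (median 695) in FAPs (log2FC 4.07 ± 0.23), above each of the 6 types. It belongs to a list of nerve and axon guidance genes of which 5 of 17 could be fitted. The guidance cue SEMA3C was higher as well, at 40.2 to 158 CPM (median 103).

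Retinoid genes divided within their list. The retinoic acid synthase ALDH1A2, its relative ALDH1A1 and the retinol carrier RBP4 (376 to 929 CPM, median 481) were higher, DHRS3 (-1.75 ± 0.15) and RARRES1 (-3.42 ± 0.19) lower, and the other 5 fitted genes neither. Enzymes of oxidation and detoxification were higher for 9 of 15 and lower for none. Aldehyde oxidase AOX1 stood at 673 to 1386 CPM (median 1023) and the secreted glutathione peroxidase GPX3 at 171 to 3218 CPM (median 1023.6), with animal 4 highest.

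Of the defining transcripts of adipocytes FABP4 had 0 UMIs in FAPs and a median of 5.70 CPM in the other cells. ADIPOQ, LEP and CIDEC had 0 UMIs in FAPs and in all other cells, and CIDEA stood at 3.49 to 15.1 CPM (median 9.47) against 5.14 to 19.3 CPM (median 14.8). Of 21 fitted adipogenic and lipid genes 7 were higher and 7 lower. The preadipocyte genes DLK1 (340.5 to 1748 CPM, median 848), MEDAG (296 to 768 CPM, median 464), EBF2 (68.6 to 174 CPM, median 121) and ZNF423 (24.4 to 63.3 CPM, median 42.8) were among the higher ones, with DLK1 shared by SCs (743 CPM) and EBF2 by SMMCs (129.5 CPM). PPARG, the master regulator of adipogenesis, stood at 0 to 5.35 CPM (median 1.53), below the other cells in all 10 animals. The fatty acid carriers FABP5 (-6.03 ± 0.29) and CD36 (-4.99 ± 0.33) were the furthest below, and VECs held most of both.

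Of 23 fitted mesenchymal factors 9 were higher and 4 lower, and of the 16 fitted against all types 0 exceeded each one, which is near the 5.52% of all genes. TWIST1 stood at 92.4 to 169 CPM (median 116), with SMMCs at 51.5 CPM, and PRRX1 was higher in SMMCs (248 CPM) than in FAPs (66.6 to 128 CPM, median 86.9). MEOX2 was the most abundant factor of the list at 303 to 568.3 CPM (median 397). HOXC6 (68.6 to 141 CPM, median 109), HOXC9 and HOXC4 were the HOX genes counted as higher, 3 of 7 fitted. The HOX list summed to a median of 399.5 CPM in FAPs and 437 CPM in SCs. Over all cells the tenocytes exceeded FAPs for HOX genes (599 against 379 CPM), for mesenchymal factors (3643 against 3038 CPM) and for the retinoid genes (1607 against 1524 CPM).

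Early response and heat shock genes, which tissue dissociation can induce, tended to the other side. Of 22 fitted early response and heat shock genes 11 were counted as lower, beside 11.1% of all genes, and none as higher, with a median log2FC of -1.08. Their summed level was 11108 to 19104 CPM (median 14593) in FAPs, with medians of 33836 CPM in SCs and 32137 in VECs. Not every type stood above FAPs: the median was 13958 CPM in lymphocytes, and all cells together gave 12644 CPM in myocytes and 9541 CPM in tenocytes. ATF3, an early stress-induced factor, stood at 22.3 to 121 CPM (median 51.5) in FAPs and 394 to 584 CPM (median 460.2) in the other cells. FOS (log2FC -0.94 ± 0.12) and EGR1 (-0.83 ± 0.28) did not reach the limit. FAPs also held more UMIs than SCs, VECs and lymphocytes, and the part of depth in this difference was not tested. Of the proliferation genes none of 7 fitted ones was higher, and their summed level was 134 to 296 CPM (median 181) in FAPs. SMMCs (184 CPM), macrophages (186 CPM), lymphocytes (227 CPM) and LECs (242 CPM) had medians within that range, and VECs (401 CPM) and SCs (870.2 CPM) lay above it.

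**Figure D3:**
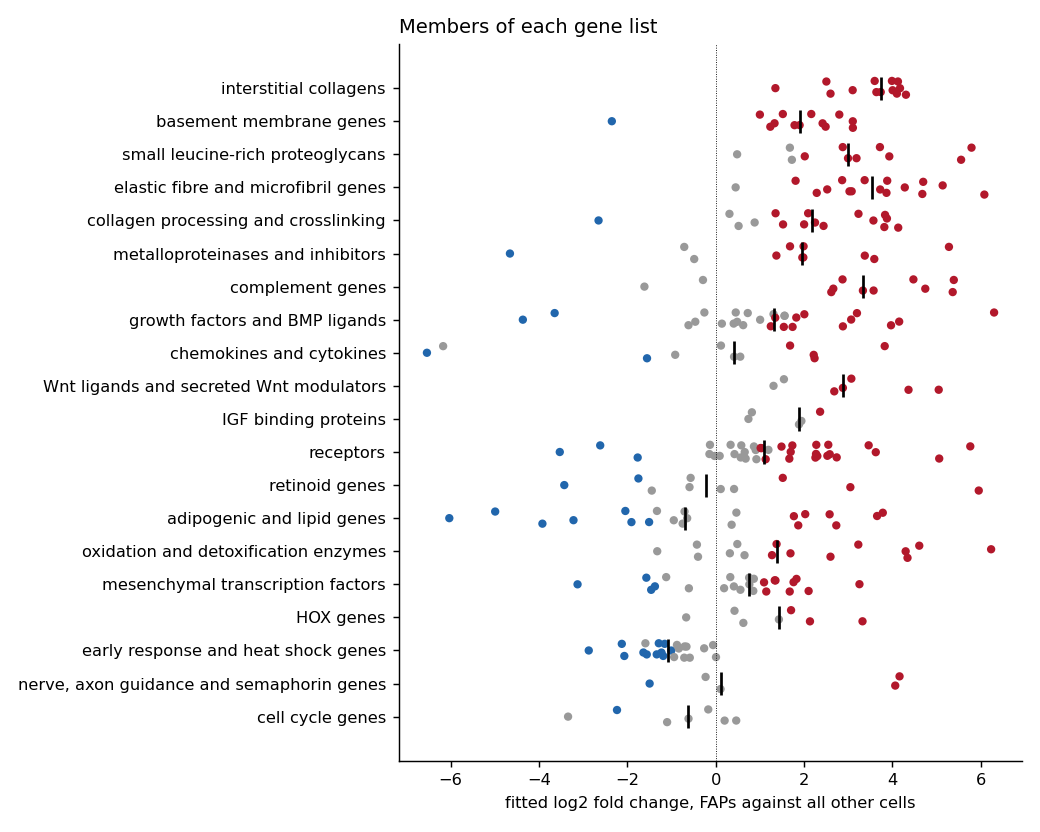
Fitted log2 fold change of each list member in FAPs against all other cells, with red for genes counted as higher, blue for lower, grey for neither and a bar at the list's median. The medians of the matrix, complement and microfibril lists lie right of 0 and reach 3.74, while early response genes have a median of -1.08.

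Fibroblasts of many tissues fall into a form marked by PI16 and DPP4 and a form marked by COL15A1. To see whether bovine FAPs vary along that line, each FAP was scored by its UMIs of 8 genes (list P: PI16, DPP4, CD55, SEMA3C, ANXA3, LIMCH1, EFHD1, CD248) and 7 genes (list C: COL15A1, CXCL14, SMOC2, HMCN2, MME, PENK, HSD11B1). Neither list is confined to FAPs. At the median list P summed to 1399 CPM in FAPs and 1047 CPM in VECs, and list C to 2174 CPM in FAPs and 1019 CPM in SCs. ANXA3 was lower in FAPs than in the other cells (log2FC -4.55 ± 0.14). The part of transcripts from other types in the split was not tested. The split put 459 FAPs (37.3%) in subset P, with more list P UMIs, and 735 (59.7%) in subset C, and left 37 ties. These are ranges of a score and not cell types: 75 cells lay within 1 UMI of the cut, and 982 FAPs (79.8%) had UMIs of both lists. The median cell of subset P had 14 UMIs of list P and 2 of list C, and that of subset C 2 and 16. FAPs were also thinned to 2000 UMIs, which left out 38 with fewer. Of the 1193 thinned cells 1015 kept their side, 63 changed it and 94 were ties afterwards.

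Every animal had both subsets. Subset P held 21.2% to 46.9% of an animal's FAPs, and its share was 34.6% ± 6.99 in calves and 33.5% ± 8.02 in adults (SD, n = 5 each, exact permutation p = 0.865). Cells of subset P were deeper, with 1186 ± 837 (SD, n = 10) more UMIs in an animal's median cell, higher in 9 of 10 animals (exact sign-flip test, two-sided, p = 0.003906). The genes of the 2 lists differ between the subsets by construction and are given as a description. PI16 stood at 612 to 1693 CPM (median 1217) in subset P and 59.2 to 134 CPM (median 100.5) in subset C, and the surface sialomucin CD248 at 339 to 687 CPM (median 476) and 34.2 to 203 CPM (median 68.3). COL15A1 stood at 79.5 to 381 CPM (median 200.4) and 1262 to 2462 CPM (median 2349.7), and MME at 11.8 to 87.9 CPM (median 25.9) and 264 to 739 CPM (median 572). EFHD1 barely differed (245 and 178 CPM at the median), and DPP4 was nearly undetected, at 0 to 14.6 CPM (median 2.00) in subset P.

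All other genes could be tested, since they took no part in the split, though genes that vary with a list gene can follow it. With the animal as a block, edgeR's quasi-likelihood test called 94 of 4038 genes higher in subset P (2.33%) and 102 higher in subset C (2.53%) where the adjusted p was below 0.05 and the change exceeded a log2FC of 1 in size. Without a limit on the fold 875 genes passed. Of the 196 called genes 154 differed the same way in all 10 animals. The 10 genes with the largest changes in each direction were picked from these 154, so their agreement in every animal is by choice. Many genes that set FAPs apart from the other cells differed within FAPs: of 545 genes counted as higher in FAPs and tested here, 54 were higher in subset P and 56 in subset C.

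Subset P was led by SPP1 (osteopontin, a secreted phosphoprotein), at 41.0 to 177 CPM (median 107) against 0 to 21.8 CPM (median 5.76) in subset C (log2FC 4.08 ± 0.25, adjusted p = 9e-15). PROCR, the receptor of protein C and a marker of several progenitor cells, stood at 407 to 4910.4 CPM (median 1977) against 72.5 to 198 CPM (median 115) (log2FC 4.05 ± 0.36, adjusted p = 1.7e-05). The atypical chemokine receptor ACKR2, which clears inflammatory chemokines, stood at 131 to 282 CPM (median 232) against 2.04 to 57.4 CPM (median 14.3) (log2FC 3.62 ± 0.32, adjusted p = 5.5e-06). None of the 3 overlapped between the subsets of the 10 animals. SPP1 and PROCR are also known from macrophages and endothelium, and in this library SPP1 averaged 8.72 CPM in macrophages and PROCR 33.4 CPM in VECs and 169.7 in LECs, below the subset P levels.

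Among the genes with the largest changes towards subset P, CLEC3B (tetranectin, which binds plasminogen) was the most abundant. It stood at 2919 to 11794 CPM (median 4749.7) against 210.1 to 1306 CPM (median 537) (log2FC 3.25 ± 0.17, adjusted p = 3.7e-08). Of these genes with the largest changes, PCOLCE2 had the smallest error (log2FC 2.65 ± 0.09, adjusted p = 9.2e-24). It stood at 1177 to 3734 CPM (median 1970.5) against 166 to 705 CPM (median 359). Others among the largest changes were the cysteine dioxygenase CDO1 (log2FC 2.98), the matrix protein ECM1 (2.94), EDEM2 (2.87) of protein quality control, and WNT2B (2.82). Each was higher in subset P in all animals, with no overlap.

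Subset C was led by ALDH1A2, at 87.2 to 271 CPM (median 161) against 0 to 29.5 CPM (median 9.12) in subset P (log2FC -3.70 ± 0.24, adjusted p = 1.5e-12), so that the retinoic acid synthase that ranked among the leading FAP genes had no overlap between the subsets. Factor D (CFD) followed at 119 to 1386 CPM (median 399.8) against 0 to 277 CPM (median 21.6) (log2FC -3.45 ± 0.45, adjusted p = 0.00031), and complement C7 stood at 143 to 1368 CPM (median 391) against 8.63 to 262 CPM (median 72.1) (log2FC -2.55 ± 0.31, adjusted p = 0.00016). Both were higher in subset C in all 10 animals, although the ranges overlap. Macrophages hold more CFD than FAPs do. Their marker list summed to medians of 82.6 CPM in P and 85.5 in C. In all FAPs the list had a median of 78.9 CPM and its member CD14 one of 58.2 CPM. The part of macrophage transcripts in the CFD difference was not tested. The Wnt antagonist SFRP1 stood at 49.1 to 221 CPM (median 119.5) against 0 to 35.9 CPM (median 10.9) (log2FC -3.21 ± 0.27, adjusted p = 6.8e-10).

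The thrombin receptor F2R had the smallest error of the leading genes, at 165 to 495 CPM (median 364) against 28.1 to 97.5 CPM (median 47.0) (log2FC -2.57 ± 0.15, adjusted p = 1.5e-15). CCL19 stood at 19.5 to 552 CPM (median 85.9) against 0 to 70.7 CPM (median 3.13) (log2FC -2.91 ± 0.52, adjusted p = 0.0023), with the largest error of the 10. The others among the 10 were BASP1 (log2FC -2.95), a gene without a symbol in the files (ENSBTAG00000014880, -2.76), RCSD1 (-2.59) and NINJ2 (-2.53).

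**Figure D4:**
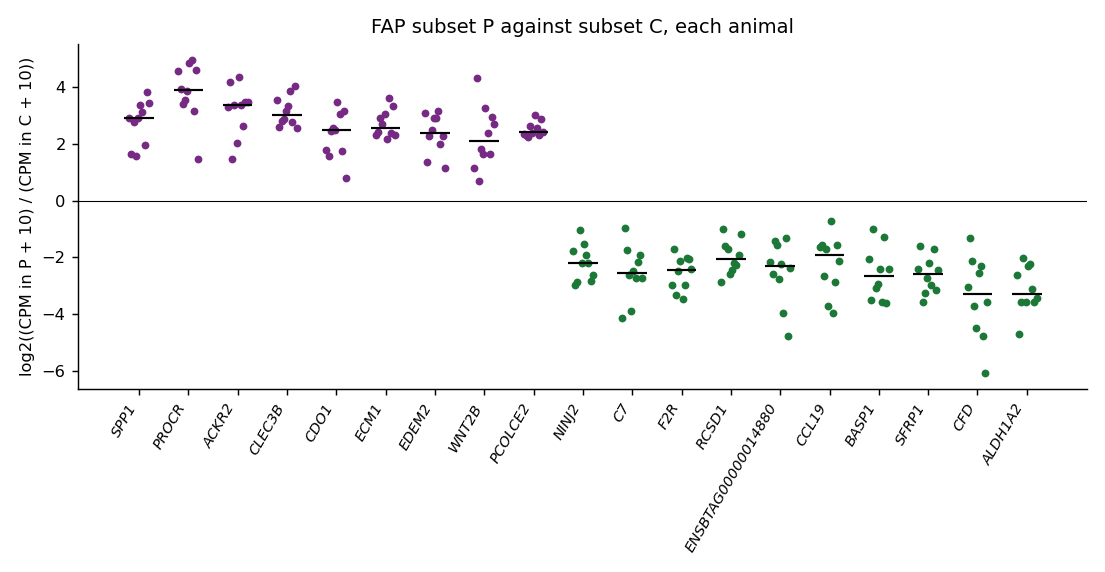
Difference between the FAP subsets in each of the 10 animals. It is log2 of CPM in subset P over CPM in subset C after adding 10 to both. Genes shown have the largest fitted changes in each direction among called genes that differed the same way in all 10 animals. By that choice purple points (higher in P) and green points (higher in C) each lie on 1 side of 0, and bars mark medians.

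Matrix genes divided by group. The counts of list members that follow stand beside 2.33% of all genes called higher in subset P and 2.53% in subset C, so that a short list with none called is near the background. Of 11 basement membrane genes outside the lists 6 were higher in subset C and none in subset P, with a median log2FC of -1.07 against -0.01 for all genes. COL15A1 of list C is itself a basement membrane gene. At the median it stood at 1440 CPM in FAPs, and all of list C at 2174 CPM. The split thus leaned on a basement membrane gene, and its part in these counts was not tested. COL4A1 stood at 3128 to 4903 CPM (median 3754) in subset C and 1038 to 2008 CPM (median 1255) in subset P (log2FC -1.38 ± 0.08, adjusted p = 2.9e-16), and NID2 at 338 to 586 CPM (median 469) and 73.7 to 196 CPM (median 106) (log2FC -1.94 ± 0.11, adjusted p = 4e-16). COL4A2, LAMA2, LAMB1 and HSPG2 were the other 4. Most interstitial collagens did not pass, with COL5A3 (-1.65) and COL6A3 (-1.65) higher in subset C as the exceptions among 13. None of the 11 small leucine-rich proteoglycans passed. Their summed level, mostly DCN, was 18413 to 23149.8 CPM (median 20352) in subset P and 23772 to 32687 CPM (median 28016) in subset C without overlap.

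Of 16 elastic fibre and microfibril genes 3 were higher in subset P and 1 in subset C. FBN1 (fibrillin 1, the core of the microfibril) stood at 3823 to 6759 CPM (median 4582) in subset P and 1202 to 2079.8 CPM (median 1535) in subset C (log2FC 1.70 ± 0.08, adjusted p = 2.6e-19). MFAP5 (1.08) and EMILIN2 (2.19) were higher in subset P too, and EMILIN1 (-1.92) in subset C. Of the 5 FAP markers only MFAP5 passed, at 3747 to 7284 CPM (median 5804) against 1486 to 4027 CPM (median 2899). PDGFRA (log2FC -0.39), DPT (0.81), VEGFD (-0.19) and CYP4B1 (0.25) stayed within a log2FC of 1, and DCN was -0.43 with no overlap between the subsets.

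Signalling genes divided as well. Of 5 IGF binding proteins IGFBP4, IGFBP5 and IGFBP6 were higher in subset P (log2FC 1.26, 1.67 and 1.26, with IGFBP5 higher in 8 of 10 animals), IGFBP7 in subset C (-1.10). Of 7 genes of the Wnt list WNT2B, SFRP4 (1.92) and DKK3 (1.23) were higher in subset P and SFRP1 in subset C. Of 23 growth factors and inhibitors FSTL1 (1.197), FSTL3 (1.72) and DKK3 were higher in subset P, and IGF1 (-1.19), BMP2 (-1.85), BMP5 (-1.28) and pleiotrophin PTN (-2.11) in subset C. Of 6 chemokines and cytokines CXCL12 and CCL19 were higher in subset C. CXCL12 stood at 988 to 1492 CPM (median 1226) in subset C and 287 to 923 CPM (median 363) in subset P (log2FC -1.50 ± 0.12, adjusted p = 1.4e-10), whereas the alarmin IL33 was higher in subset P (1.10).

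Of 30 receptors tested 2 were called in each direction. THY1 (1.28) and the collagen receptor DDR2 (1.10) were higher in subset P, and LIFR (-2.13) and VCAM1 (-1.44) in subset C. Of 12 adipogenic and lipid genes ZNF423 (1.64), KLF4 (1.17), ADIRF (1.06) and MEDAG (1.14) were higher in subset P, and lipoprotein lipase LPL (-1.72) and the lipocalin APOD (-1.65) in subset C. None of 22 early response genes was called.

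Marker sums of other types are given beside these results, and their part in them was not tested. In subset P and subset C the endothelial list summed to 25.9 to 542 CPM (median 42.5) and 9.77 to 73.2 CPM (median 36.6), the smooth muscle and pericyte list to 14.6 to 200.1 CPM (median 42.5) and 28.4 to 74.8 CPM (median 49.99), and the macrophage list to 51.7 to 129 CPM (median 82.6) and 40.6 to 168 CPM (median 85.5). Fibre transcripts stood at 914 to 1993 CPM (median 1272) and 916 to 1902 CPM (median 1474), higher in subset P in 5 of 10 animals. Subset P had the higher sum in 2 of 10 animals for smooth muscle and pericytes, in 6 for endothelium and in 4 for macrophages. The SC list stood at 40.0 to 264 CPM (median 90.1) in subset P and 72.8 to 249 CPM (median 126) in subset C, higher in P in 2 of 10 animals. The adipocyte list, low in both, had the higher sum in subset C in all 10, at 0 to 9.61 CPM (median 2.65) in P and 6.13 to 29.3 CPM (median 13.7) in C. Of its 6 genes 4 had 0 UMIs in FAPs, so the sum is mostly CIDEA. CIDEA was seen in 2.61% of subset P cells and 6.67% of subset C cells, and in 14.4% of SCs and 10.8% of SMMCs. PLIN1 was seen in 0.436% of subset P cells and 0.952% of subset C cells. The highest endothelial value in subset P came from animal 3, whose subset P held 11 cells. Without FAPs that carried markers of another type, tenocyte and fibre genes not counted, 18 of the 20 leading genes could be fitted, and each kept its call. With every sum thinned to the smallest 6 could be fitted (PROCR, CLEC3B, ECM1, PCOLCE2, F2R and C7), and these kept theirs.

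Animals differed little for most genes. The SD between animals of log2 CPM had a median of 0.304 over 4328 genes. The 5 genes of at least 50 CPM with the largest SD were IGFBP5 (SD 1.67), the glucocorticoid-induced FKBP5 (1.59), the metallothionein MT2A (1.52), the heat shock gene HSPA1A (1.38) and MUSTN1 (1.29). IGFBP5 stood at 313 to 579 CPM in calves and 22.2 to 256 CPM in adults. FKBP5 stood at 27.1 to 217 CPM and 303 to 608 CPM, and MT2A at 75.4 to 282 CPM and 448 to 1316 CPM. The 5 genes were picked for their spread over these same animals, a choice that favours gaps between the ages. HSPA1A ran from 496 CPM in animal 10 to 5694 in animal 4, and MUSTN1 stood at 1440.4 CPM in animal 4 and at no more than 351 in the rest.

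In edgeR's test of calves against adults 35 of 6158 genes were higher in calf FAPs (0.568%) and 46 in adult FAPs (0.747%). The 3 with the largest change among those without overlap were LRRC17 (log2FC 3.06 ± 0.56, adjusted p = 0.019), DDIT4L (log2FC 2.43 ± 0.43, adjusted p = 0.0062) and ALAD (log2FC 1.96 ± 0.28, adjusted p = 0.0016) in calves and LIPG (log2FC -2.61 ± 0.42, adjusted p = 0.009), HIGD1B (log2FC -2.54 ± 0.55, adjusted p = 0.043) and MT2A (log2FC -2.53 ± 0.47, adjusted p = 0.027) in adults. Leaving out single animals ended the call of HIGD1B in 8 of 10 fits (adjusted p 0.0210 to 0.110), of MT2A in 7 (0.00850 to 0.0750) and of LRRC17 without animal 3 or 6. HIGD1B and LRRC17 also lost theirs with no filter on low counts. Of all 81 called genes 30 passed in each of the 10 fits that left out an animal. FKBP5 passed the same test (log2FC -2.43 ± 0.52, adjusted p = 0.045) but with 1 animal left out it kept its call only without animal 4 or 10 (adjusted p 0.00075 to 0.11 over the 10 fits), and IGFBP5 did not pass (log2FC 1.85 ± 0.57, adjusted p = 0.13).

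**Figure D5:**
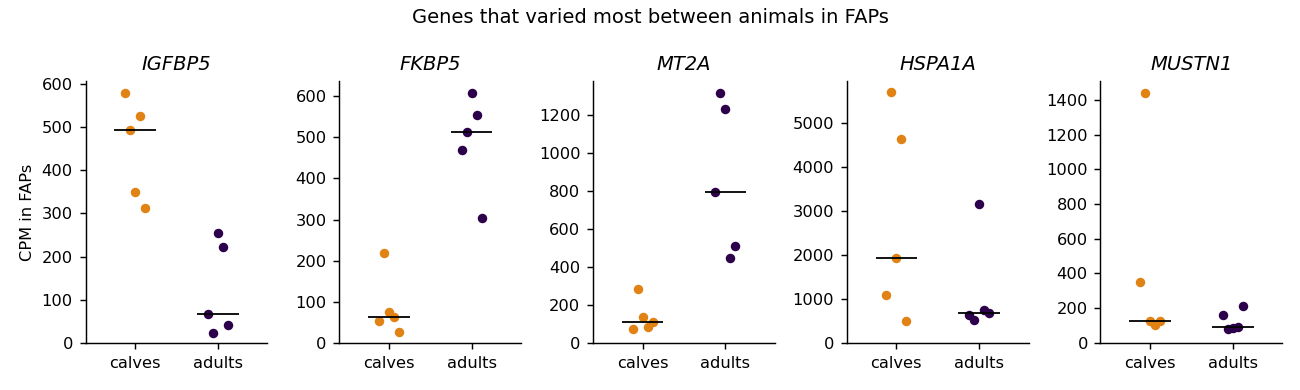
CPM in FAPs of the 5 genes that varied most between animals, with 1 point per animal, calves in orange, adults in purple and a line at the median of 5 animals. The genes were picked for their spread over these same animals, and in MUSTN1 animal 4 stands alone at 1440.4 CPM.

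In the next library of the series, of cells from 9 of these animals after 72 h in culture, all 10 genes with the widest margin in muscle were still higher in FAPs than in the other cells of all 9 animals, but each lay below its lowest muscle value. Of all 157 genes above every type in muscle 87 were higher in the FAPs of all 9 animals, and of the 10 with the largest log2FC 8. Of all genes compared with the 6 types in muscle 20.9% were higher there by that rule, and of all compared with the other cells 16.1%. DCN stood at 2367 to 3451 CPM (median 2851), PDGFRA at 180.1 to 499.9 CPM (median 261) and PI16 at 0 to 0.607 CPM (median 0.402). The library and the culture cannot be told apart in this comparison, which has no test. The authors also assigned cell identities in that library by comparing it with muscle, so the FAP label there is not independent of these genes.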

How the data were processed

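Cells of fresh muscle and of passage 0 were used here, and the later passages were not. Per the file headers and the study's methods, the authors made the deposited counts, whole numbers of UMIs per gene and barcode, with Cell Ranger 6.0.1 on genome build ARS-UCD1.2 and an Ensembl annotation. The authors assigned cells to animals from genotypes with demuxlet and filtered on median absolute deviations. They labelled the clusters of the muscle library from differentially expressed genes and from phenotypes predicted with mouse data. The cells used here are singlets of 1 animal. Of 8980 barcodes 728 (8.11%) were doublets of 2 animals and 2817 ambiguous. Doublets within 1 animal remain, and no other caller was run. The deposited percent values are the share of mitochondrial UMIs per cell. The authors' combined table of corrected values and 20 other columns of the cell table were not used. The muscle library and passage 0 shared 7 barcodes among kept cells, 4395 and 9591.

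UMIs of at least 10 cells were summed per animal, giving 270458 to 2268755 counts for FAPs, so that intervals over animals also hold counting error. Sums were fitted in edgeR 4.0.16 (R 4.3.3) with TMM factors, its filter on low counts and robust quasi-likelihood, with the animal as a block except between ages. Adjusted p-values are Benjamini-Hochberg over all genes tested, and calls needed an adjusted p below 0.0500 with a log2FC over 1 in either direction. Exact tests used Python 3.11.15 with numpy 2.4.6 and scipy 1.17.1. Rows that share a symbol (68 symbols) were named by identifier, and close paralogs such as HSPA1A may share reads. Scripts were tested on simulated data. Alternatives were DESeq2 1.42.0, RLE factors, no filter, thinned sums, no replicate block, FAPs without markers of another type, at least 30 cells per sum, equal weights for types, other splits of the subsets, sex as a covariate and leaving out each animal.

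Pairing by animal came from the genotypes. The members and gene lists were chosen with earlier results of these data known. The text names the 5 markers, the 10 largest changes (at least 50 CPM), the 10 widest margins over all types, 2 to 6 extreme or most abundant members of each list, the 10 largest subset changes in each direction that held in every animal, 3 per direction by age and the 5 genes that varied most. Genes named beyond this rule, such as called members of a list, were chosen after their values were seen. 1 gene that the rule selects is not reported here.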

Additional observations from a re-analysis of the deposited data

Results flagged for a closer look

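In 188 sets of animals tested gene by gene, the highest animal stood apart from the others by Dixon's criterion in 31. Chance alone flags about 1 in 20 sets only if the values are normally distributed. These are CPM without a log, and skewed levels can be flagged more often, so that rate need not hold here. Genes of 1 animal are not independent of each other.

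Animal 4, a calf whose FAPs made up the smallest share of its cells (13.9%), was the highest in 13 of them. Among secreted proteins these were the lipocalin APOD (2563 CPM, next animal 1257), the complement genes C1R (2235 CPM), C1S (2243 CPM), C7 (907 CPM), CFD (925 CPM) and SERPING1 (2619 CPM), and the peroxidase GPX3 (3218 CPM). MUSTN1 stood at 1440.4 CPM (next 351) and PDGFRA at 1212 CPM (next 909.6). Markers of other types were the highest there too, with CD14 of macrophages at 123 CPM and the lymphatic genes MMRN1 at 32.1 CPM and CCL21 at 19.6 CPM. Within the 5 calves its MT2A was apart at 282 CPM (next 135).

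Animal 5, which gave the most FAPs, was the highest for CLEC3B (7048 CPM, next 3257), PCOLCE2 (2358 CPM), EMILIN2 (84.6 CPM), FSTL1 (1933 CPM), NOVA1 (1407 CPM) and TIMP2 (1523 CPM). All 6 were called higher in subset P, beside 2.33% of all genes tested. That animal also had the largest share of subset P (46.9%) and gave 164 of its 459 cells. A link between these observations was not tested.

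Animal 3 had the highest endothelial markers FLT1 (48.1 CPM) and PECAM1 (29.6 CPM). Animal 10 stood apart in LUM (4523 CPM), LRRC17 (159 CPM) and MYH2 (59.1 CPM), and animal 9 in TWIST1 (169 CPM), IER3 (354 CPM) and CXCL8 (6.05 CPM, next 3.18). The CXCL8 value rests on very few UMIs, since the FAPs of animal 9 gave 330403 UMIs in all. The remaining sets were ASPN in animal 1 (1197 CPM), MYH1 in animal 2 (126 CPM), CD3E in animal 6 (13.9 CPM) and P4HA3 in animal 7 (26.9 CPM).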

How the results depend on the processing

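Of 376 values recomputed under an alternative 333 kept their direction and their side of the threshold, or stayed within 1.5 times for a count, and 0 changed sign. The log2FC of the 5 FAP markers ran from 5.65 to 6.50. Depth and the filter moved the counts most. With every sum thinned to the smallest, fewer genes could be tested, and 408 genes were higher and 393 lower in FAPs than in the other cells (3991 tested), 64 exceeded all 6 types, 31 were higher in subset P and 36 in subset C (1030 tested), and 22 were higher in calves and 22 in adults. With no filter for low counts, 1574 genes were lower in FAPs than in the other cells, 251 exceeded all 6 types, 223 were higher in subset P and 296 in subset C, and 63 were higher in calves.

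Without the replicate block of the animal the counts were 629 higher and 836 lower against the other cells, 156 above all 6 types, 86 for subset P and 94 for subset C, and the leading subset genes recomputed kept their call. With at least 30 cells per sum only 4 types could be compared. Leaving out 1 animal at a time gave 25 to 45 genes higher in calves and 31 to 60 in adults. Of the 81 called genes 30 passed in all 10 of these fits. Among the genes named, the calls that ended were FKBP5 (without animals 1, 2, 3, 5, 6, 7, 8 or 9), HIGD1B (without animals 1, 2, 3, 4, 5, 8, 9 or 10), MT2A (without 1, 2, 3, 5, 6, 7 or 10) and LRRC17 (without 3 or 6). HIGD1B, LRRC17 and FKBP5 also lost theirs with no filter, and FKBP5 with sex as a covariate (adjusted p = 0.08) or without FAPs that carried other markers (0.055). DESeq2 called IGFBP5 (adjusted p = 0.048). The cause was not tested. All 139 recomputed values of the leading subset genes kept their call. For genes of low level, LECs and lymphocytes, depth limits what a single animal can show.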
